A study of Homo sapiens with 12 samples.

Results

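In MDA-MB-231 cells, 617 of the 14043 H3K9ac regions that were called reproducibly on the autosomes of untreated cells met no H3K9ac peak in either library of DETA/NO-treated cells. These 617 are called unmatched regions here, and the other 13426 are called matched regions. They were chosen by overlap alone: a region of the untreated reproducible set stayed in when it shared not even 1 bp with a peak of treated replicate 1 or treated replicate 2. The untreated reproducible set held 14377 regions in all, of which those on the sex chromosomes and the mitochondrial genome were left out. The share of unmatched regions was 4.39%, and because the rule made it, it is a description and carries no test.

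Cells of both groups were MDA-MB-231, an established human line of triple negative breast cancer. The treated group received the slow nitric oxide donor DETA/NO at 500 µM for 24 h, after overnight serum starvation per the labels' protocol. The untreated group had no DETA/NO and served as the control. There were 2 biological replicates of each group for each mark, which gives 8 libraries with interval lists. The 4 input samples were not analysed here. The lists say where a mark was called and with what score. They hold no reads, so the depth is unknown, and a region without a treated peak is a region where none was called. All positions are on hg19, counted from 1.

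Acetylation and dimethylation compete for the same residue, lysine 9 of histone H3, so a single histone tail carries one or the other. H3K9ac is laid down by histone acetyltransferases, removed by histone deacetylases and found at active promoters and enhancers. H3K9me2 is written by methyltransferases such as G9a and GLP, removed by demethylases such as KDM3A, and covers long silent domains. A region called for both marks in one culture can come from different cells or from different copies of a chromosome, which these lists do not resolve.

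The unmatched regions were narrow and weak in the untreated cells themselves. Their median width was 370 bp (range 238 to 1497 bp), against 1158 bp for matched regions. The narrowest width of the set, 238 bp, was held by 35 unmatched regions (5.67%) and by 19 matched regions (0.142%). A single peak of each untreated library lay under 616 of the 617 unmatched regions and under 63.9% of the matched ones. The authors' score in the reproducible set is the −log10 of the rate at which a call fails to repeat, as inferred from its values. Its median was 1.83 for unmatched regions (1.30 to 3.6) and 2.79 for matched regions.

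Width separated the 2 classes more than the score did. Of regions up to 300 bp wide, 147 of 326 (45.1%) were unmatched. The share was 30.6% at 301 to 400 bp, 16.6% at 401 to 500 bp, 5.29% at 501 to 700 bp and 0.429% at 701 to 1000 bp. Only 2 of 7993 regions over 1000 bp were unmatched. By score, the share lay between 9.63% and 12.7% in each class up to 2.25, was 2.49% from 2.25 to 2.5, and came to 4 of 5898 regions above 3. Most regions in every score class met a treated peak.

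The ranks within the library lists show the same weakness. For each region the highest-scoring overlapping peak was placed as a percentile of its list, where 100 is the strongest peak. The median percentile of unmatched regions was 42.1 in untreated replicate 1 (0.385 to 92.9) and 30.8 in untreated replicate 2 (0.0477 to 93.7). Matched regions had medians of 94.1 and 87.2. The peaks under unmatched regions ranked between 8558 and 120011 of the 120630 peaks of untreated replicate 1, and between 3771 and 59669 of the 59724 peaks of untreated replicate 2. In 301 unmatched regions (48.8%) both peaks lay in the weaker part of their list, below the 50th percentile, against 2.68% of matched regions. Both peaks lay above the 80th percentile in 7 unmatched regions, against 69.6% of matched regions.

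**Figure D1:**
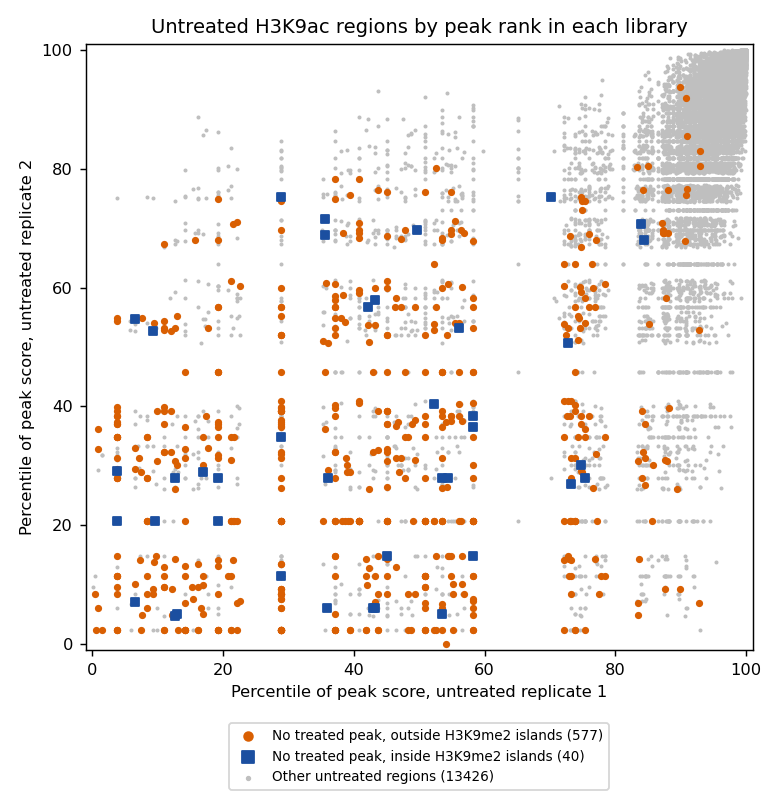
Percentile of the highest-scoring overlapping peak in the list of untreated replicate 1 (horizontal axis) and untreated replicate 2 (vertical axis) for each untreated H3K9ac region, where 100 is the strongest peak. Orange points and blue squares are the 617 unmatched regions, outside and inside H3K9me2 islands, and spread over the lower percentiles, while the 13426 matched regions in grey crowd the upper right corner. Rows and columns of points are peaks with tied scores.

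Each treated library on its own left more regions without a peak. Treated replicate 1 had no peak in 748 of the 14043 regions and treated replicate 2 had none in 721, so 131 regions were missed by replicate 1 alone and 104 by replicate 2 alone. Around the threshold, 17 unmatched regions lay within 100 bp of a treated peak and 27 matched regions overlapped treated peaks by at most 100 bp. The smallest gap of an unmatched region was 3 bp, and the smallest overlap of a matched region was also 3 bp. When the strongest peaks of untreated replicate 2 alone took the place of the reproducible set, as many as that set holds, 272 of 14043 met no treated peak, and with untreated replicate 1 alone 478 did not.

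Distances from unmatched regions to treated peaks varied widely. The gap to the nearest treated peak had a median of 11.0 kb, with quartiles of 2.69 and 32.2 kb and a range of 3 bp to 490.7 kb. A treated peak lay within 1 kb of 88 unmatched regions (14.3%), within 10 kb of 294 (47.6%) and within 100 kb of 582 (94.3%). The median gap was 28.1 kb to treated replicate 1 and 14.5 kb to treated replicate 2. The nearest region of the treated reproducible set was 79.1 kb away at the median, so the nearest treated peak was usually one that did not enter that set.

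The next H3K9ac peak that did not overlap the region was a median of 28.1 and 14.5 kb away in treated replicates 1 and 2, and 5.27 and 14.5 kb away in untreated replicates 1 and 2. Around matched regions these medians were 1.11 and 0.765 kb in the treated and 0.378 and 0.572 kb in the untreated libraries. Treated replicate 2 and untreated replicate 2 thus had the same median around unmatched regions, and the treated and untreated libraries do not separate. Within 50 kb of the centre, 233 unmatched regions (37.8%) had no peak of treated replicate 1 and 135 (21.9%) had none of treated replicate 2. No such count is set beside these for matched regions, because the rule gives each of them a treated peak. The rule also removed every treated peak from the unmatched regions themselves, so these gaps are given without a test.

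**Figure D2:**
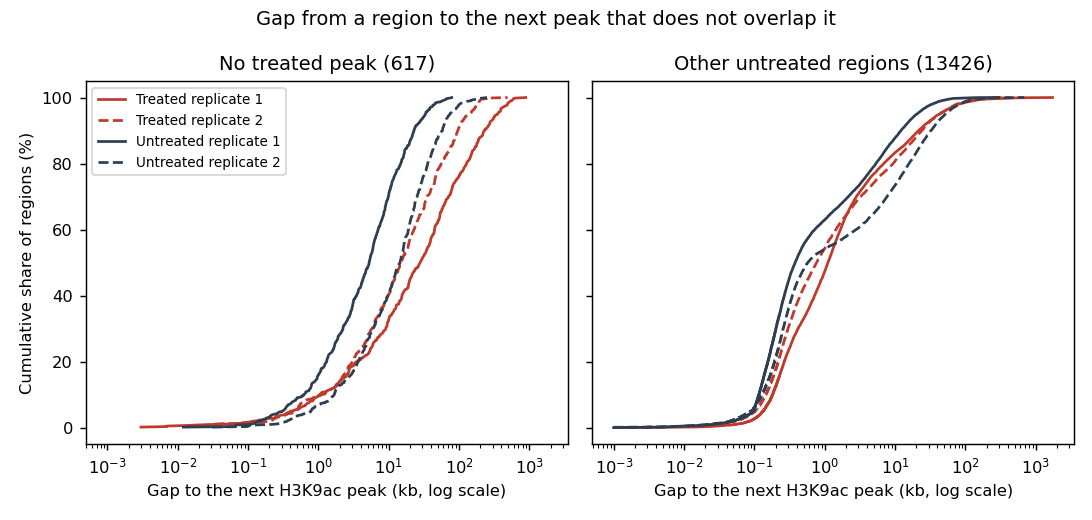
Cumulative share of regions (vertical axis) by the gap to the next H3K9ac peak that does not overlap the region (horizontal axis, kb, log scale), for the 617 unmatched regions on the left and the 13426 matched regions on the right, with 1 line per library. Around unmatched regions the medians were 28.1 and 14.5 kb in treated replicates 1 and 2 and 5.27 and 14.5 kb in untreated replicates 1 and 2, so treated replicate 2 and untreated replicate 2 cross.

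The 3 unmatched regions nearest to a treated peak lay beside calls of treated replicate 1. At chr1:231490071-231490484 the peak of treated replicate 1 began 3 bp away, and that of treated replicate 2 was 5.35 kb away. At chr1:42088952-42089339 the gaps to treated replicates 1 and 2 were 7 and 175 bp. At chr5:126564181-126564519 they were 7 and 164 bp. At these 3 places acetylation was called beside the region in at least 1 treated library. The 3 farthest lay in long spans without a treated H3K9ac peak. The region at chr12:17250426-17250732 had no peak of treated replicate 1 within 490.7 kb and none of treated replicate 2 within 491.0 kb, and lay in no H3K9me2 island. The region at chr7:145827676-145828025 was 489.6 and 212.6 kb from treated replicates 1 and 2. The region at chr6:62114160-62114684 was 320.6 and 199.9 kb from them, and both of these last regions lay in H3K9me2 islands of all 4 libraries.

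H3K9me2 was not used to choose the regions and served to divide them. An island of both untreated H3K9me2 libraries covered at least 1 bp of 40 unmatched regions, or 6.48% (95% Wilson interval 4.80 to 8.71%). The same held for 7 of 13426 matched regions (0.0521%), and for 0.335% of all 14043 regions. Intervals here cover counting error only. Regions are neighbours on shared chromosomes and not replicates, so the shares are descriptions and their difference was not tested. The other 577 unmatched regions are called outside here, although 54 of them lay in an island of 1 untreated library.

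The excess over matched regions was present in each library alone. Unmatched regions in an island numbered 51 in treated replicate 1, 73 in treated replicate 2, 79 in untreated replicate 1 and 55 in untreated replicate 2. Matched regions, which are far more numerous, gave 10, 12, 53 and 9 in that order. The shares over all 14043 regions were 0.434%, 0.605%, 0.94% and 0.456%. Among the unmatched regions alone they were 8.27%, 11.8%, 12.8% and 8.91%. Islands covered 9.86%, 7.83%, 8.14% and 8.80% of the autosomes in the same order, and in treated replicate 1 the share of unmatched regions was thus the lower one. A share of regions counts any overlap and cover counts bases, so the 2 are not the same measure. Of the 53 matched regions in islands of untreated replicate 1, 17 lay in 1 island of 54.5 kb on chromosome 16, which also held 4 unmatched regions. Most unmatched regions, 488 (79.1%), lay in no island of any library, as did 99.5% of matched regions.

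The difference was also present among narrow and weak calls alone. Among regions up to 500 bp wide with a score under 2.25, 33 of 496 unmatched regions (6.65%) and 3 of 1143 matched regions (0.262%) lay in islands of both untreated libraries. In the same class, islands of treated replicates 1 and 2 held 42 and 58 unmatched regions, against 0 and 2 matched ones. Islands of untreated replicates 1 and 2 held 58 and 46 unmatched regions, against 9 and 3 matched ones. The limits of this class were chosen after the data were seen.

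Islands over the unmatched regions did not differ between treated and untreated cells beyond the spread between replicates. They covered 7.56% and 11.8% of the bases of unmatched regions in treated replicates 1 and 2, a mean of 9.66 ± 2.98% (SD, n = 2). In untreated replicates 1 and 2 they covered 12.5% and 8.26%, a mean of 10.4 ± 3.01% (SD, n = 2). The values of the 2 groups overlap. The difference of -0.726 percentage points had p = 0.667 in a two-sided exact permutation test over the 4 libraries, which allows no p below 0.333. It became 1.38 points without treated replicate 1 and 1.40 points without untreated replicate 1, so its direction rested on single libraries. Matched regions were covered to 0.0287% and 0.0597% in treated and to 0.210% and 0.0491% in untreated replicates 1 and 2. Islands of both treated libraries lay over 34 unmatched regions (5.51%) and 2 matched regions, with 0.256% over all regions.

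Of the 40 regions inside islands of both untreated libraries, 26 (65.0%) were also inside islands of both treated libraries, and 5 were in neither. Of the 34 inside islands of both treated libraries, 26 (76.5%) were inside those of both untreated ones. Because the 40 were picked by untreated islands, a lower count in treated libraries among them is set by that choice. Islands of both treated libraries and of no untreated one lay over 2 of 617 unmatched regions (0.324%) and 0 of 13426 matched regions.

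The islands that held the 40 regions were longer than the median island of the lists. Islands of treated replicates 1 and 2 lay over 28 and 33 of the 40, with median widths of 87.3 and 76.5 kb, and those of untreated replicates 1 and 2 lay over all 40, with median widths of 62.5 and 60.5 kb. The median island of the whole lists measured 13.5 and 14.0 kb in treated and 12.0 and 11.0 kb in untreated replicates. A long island covers more positions than a short one, so islands found through a position tend to be long. No reference weighted by length was made, and the difference is therefore not read as a trait of these regions. Each island found in this way held 1 of the 40 regions, and these lay a median of 11.3 to 18.2 kb from the island's edge across the 4 libraries. The 40 regions were spread over 14 chromosomes, with 9 on chromosome 6, 7 on chromosome 11 and 5 on chromosome 5. H3K9me2 filled 61.6% and 64.0% of the 250 kb to either side in treated replicates 1 and 2, and 64.1% and 64.9% in untreated replicates 1 and 2.

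Regions inside islands stood in sparser acetylation than those outside, while their own peaks were alike in strength. The median percentile was 42.5 inside and 41.9 outside in untreated replicate 1, and 28.5 inside and 30.8 outside in untreated replicate 2. The nearest treated peak was a median of 35.5 kb away inside and 10.3 kb outside. By library this gap was 148.5 kb inside and 23.6 kb outside for treated replicate 1, and 43.6 kb inside and 14.3 kb outside for treated replicate 2. The nearest matched region lay a median of 614.6 kb away inside and 91.4 kb outside. In the untreated libraries too, the next peak that did not overlap the region was farther away inside. Its median gap was 8.66 kb inside and 5.09 kb outside in untreated replicate 1. In untreated replicate 2 it was 29.3 kb inside and 13.2 kb outside, so the sparser acetylation was not particular to treated cells. Within 50 kb of the centre, 28 of the 40 inside regions had no peak of treated replicate 1 and 18 had none of treated replicate 2. Of the 577 outside regions, 205 had no peak of treated replicate 1 and 117 had none of treated replicate 2.

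The surroundings of unmatched regions showed no broad hollow in H3K9me2. Within 20 kb of the centre, islands covered 10.4% and 11.9% of bases in treated replicates 1 and 2 and 11.8% and 10.8% in untreated replicates 1 and 2. At 400 to 500 kb the cover was 10.7% in each of the 4 libraries. Around matched regions it was 1.01% and 0.509% in treated and 0.703% and 0.586% in untreated replicates near the centre, and 4.63%, 4.06%, 4.01% and 3.92% at 400 to 500 kb in the same order. Over the whole autosomes islands covered 9.86% and 7.83% in treated and 8.14% and 8.80% in untreated replicates. The 577 outside regions gave 6.16% and 7.53% in treated and 6.85% and 5.74% in untreated replicates near the centre, against 7.91 to 8.22% at 400 to 500 kb. Matched regions thus sat in wide windows nearly free of H3K9me2. Within 20 kb of the centre, unmatched regions as a whole had more cover than the full length of the autosomes. The margin was smallest in treated replicate 1, at 10.4% against 9.86%. Those outside islands, which were picked for lacking islands of both untreated libraries, had less than the autosomes, but more than matched regions. Against the full length this order within 20 kb held in all 4 libraries. It did not hold on the bases of the unmatched regions themselves. Their cover was below that of the autosomes in treated replicate 1 (7.56%) and untreated replicate 2 (8.26%). In treated replicate 2 (11.8%) and untreated replicate 1 (12.5%) it was above. The full length includes long stretches with no interval in any list, which lower its cover, and cover without them was not computed. Lines of treated and untreated libraries crossed repeatedly around unmatched regions.

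**Figure D3:**
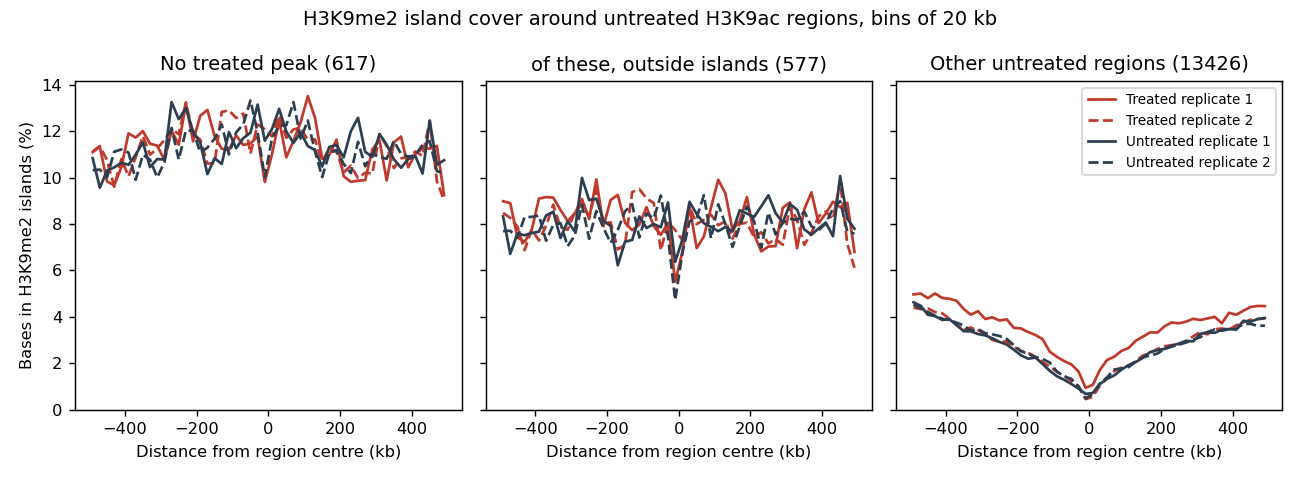
Share of bases in H3K9me2 islands (vertical axis, %) by distance from the region's centre (horizontal axis, kb, bins of 20 kb) for the 617 unmatched regions, the 577 of them outside islands of both untreated libraries, and the 13426 matched regions, with 1 line per H3K9me2 library. Unmatched regions stay between 9.02% and 13.5% in every bin, while matched regions dip to between 0.461% and 0.948% at the centre.

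Of the 8 highest-scoring regions outside islands, 4 lay 3.20 to 49.8 kb from the longest uncalled stretch of their chromosome, described below. The strongest was chr19:27735003-27735438, with a score of 3.6 and peaks at the 92.9th and 83.0th percentile in untreated replicates 1 and 2. Treated peaks lay 2.70 kb (replicate 1) and 0.523 kb (replicate 2) from it. The regions chr16:46389320-46389717, chr16:46401665-46402117 and chr16:46435315-46435741, with scores of 3.40, 3.32 and 2.51, belonged to 1 cluster. Their peaks lay between the 90.8th and 90.9th percentile in untreated replicate 1. Peaks of treated replicates 1 and 2 lay 0.883 and 0.849 kb from the first, 0.872 and 0.859 kb from the next and 2.51 and 2.49 kb from the last. The region chr6:169241014-169241457, with a score of 3.37, had treated peaks at 10.1 kb (replicate 1) and 0.312 kb (replicate 2). For these 5 strong regions a treated peak was therefore close by in both libraries or in replicate 2.

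The other 3 strong regions outside islands stood farther from treated acetylation. At chr5:76463836-76464532, with a score of 2.72, treated peaks lay 11.5 kb (replicate 1) and 80.1 kb (replicate 2) away. At chr9:27878302-27879047, also with a score of 2.72, the gaps were 30.1 and 248.4 kb, and an island of untreated replicate 1 covered the region. At chr11:48845234-48845767, with a score of 2.70, they were 215.3 and 13.5 kb, and islands of both treated libraries and of untreated replicate 1 covered it. The peaks of these 3 regions lay between the 74.6th and 75.3rd percentile in both untreated libraries.

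The 8 highest-scoring regions inside islands had lower scores, from 2.02 to 2.27, since none of the strongest unmatched regions was inside. At chr5:19281275-19281655 the score was 2.27, the gaps to treated replicates 1 and 2 were 534.8 and 173.2 kb, and an island of treated replicate 1 but not of replicate 2 covered the region. At chr4:82680308-82680773, with a score of 2.25, the gaps were 284.5 and 93.3 kb, and treated replicate 2 alone had an island. Islands of both treated libraries also lay over chr5:24343605-24343951 (score 2.14, gaps of 23.7 and 23.5 kb), over chr7:145827676-145828025 (score 2.09) and over chr1:170312695-170313295 (score 2.02, gaps of 186.5 and 4.71 kb). Treated replicate 2 alone had an island at chr7:150510593-150510856 (score 2.04) and at chr4:58933714-58933984 (score 2.02). No treated island covered chr1:176671685-176672048 (score 2.05), where both marks were thus called in untreated cells and neither in treated cells.

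Chromosomes differed widely in their share of unmatched regions. Chromosome 4 had the highest, 45 of 610 regions (7.38%, Wilson interval 5.56 to 9.73%), followed by chromosome 7 with 7.07%, chromosome 5 with 6.81% and chromosome 10 with 6.36%. Chromosome 19 had 21 of 1142 (1.84%), chromosome 16 had 6 of 422 and chromosome 15 had 1 of 289. Chromosomes 13 and 22 had 0 of 158 and 0 of 188, with upper limits of 2.37% and 2.00%. In the mean of the 4 libraries, chromosome 11 lay in H3K9me2 islands over 23.5% of its length, chromosome 5 over 20.2%, chromosome 6 over 17.4%, chromosome 20 over 14.3%, chromosome 7 over 13.1% and chromosome 4 over 12.9%. Chromosome 6 nonetheless had 3.88% unmatched regions, below the 4.39% of all autosomes, chromosome 20 had 5.03%, and chromosome 10, with 6.36%, had an H3K9me2 cover of 7.52%. Chromosome 22 lay in islands over 0.0310%, and chromosome 13 had no island.

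Across the 22 autosomes the share of unmatched regions moved with H3K9me2 cover, with Spearman's rho of 0.814 and Pearson's r of 0.732. Among regions in no island of any library rho was 0.715, so the relation did not need regions inside islands. The share moved the other way with the ratio of treated to untreated H3K9ac peak counts per chromosome (rho -0.842, r -0.819). That ratio comes from the same peak lists that define an unmatched region, so a negative relation is partly built in and is no independent result. That ratio was lowest on chromosome 4, at 0.614, and highest on chromosome 22, at 1.22. It also moved with H3K9me2 cover (rho -0.684). These are descriptions over chromosomes that share the same libraries. Base composition, gene density and the number of copies of each chromosome in these cells were not measured here, and their part in these relations was not tested.

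**Figure D4:**
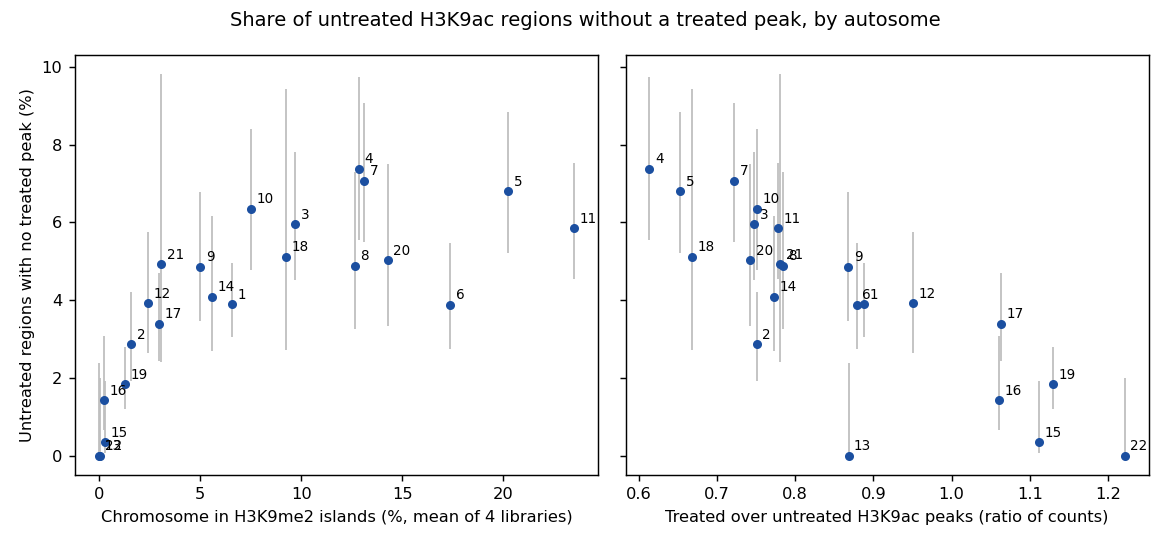
Share of untreated H3K9ac regions with no treated peak (vertical axis, %, with 95% Wilson intervals) for each of the 22 autosomes, by the mean share of the chromosome in H3K9me2 islands of 4 libraries (left) and by the ratio of treated to untreated H3K9ac peak counts (right). Chromosome 4, at 7.38%, has the lowest ratio, 0.614, and chromosome 22, at 0, the highest, 1.22.

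No hg19 assembly gaps were used here. As a stand-in, chosen after the data were seen, the longest stretch of each autosome with no interval in any of the 8 library lists was taken. These stretches measured 3.0 to 21.0 Mb, and those of chromosomes 13, 14, 15, 21 and 22 began at the first base. By general knowledge of human chromosomes such stretches lie at centromeres and at the short arms of acrocentric chromosomes, and their borders hold satellite repeats that are near identical at many places. Reads from such repeats are hard to place, and how the authors treated them is not given in the sources used here.

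Within 1 Mb of a stretch lay 37 unmatched regions, or 6.0% (Wilson interval 4.38 to 8.16%), and 206 matched regions (1.53%), with 1.73% over all regions. Within 100 kb lay 18 unmatched (2.92%) and 91 matched regions (0.678%). By library rank the 37 regions were among the stronger ones. Their median percentiles were 73.8 and 67.8 in untreated replicates 1 and 2, against 40.8 and 29.4 for the 580 farther away. By the authors' score in the reproducible set they were not, with medians of 1.84 and 1.83. The treated libraries differed from each other in this neighbourhood. Of the 243 untreated regions within 1 Mb, treated replicate 1 had no peak in 104 (42.8%) and treated replicate 2 had none in 38 (15.6%). Farther away these shares were 4.67% and 4.95%. Treated replicate 1 placed 66 of its peaks within 100 kb of a stretch, against 198 in treated replicate 2, 357 in untreated replicate 1 and 192 in untreated replicate 2. As shares of the autosomal peaks of each list these were 0.0851%, 0.294%, 0.304% and 0.331%. Judged by treated replicate 1 alone, 13.9% of regions without a peak were within 1 Mb of a stretch, and judged by treated replicate 2 alone 5.27% were.

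How far unmatched regions grouped depended on the distance allowed between neighbours. Neighbouring unmatched regions were a median of 1.95 Mb apart, with quartiles of 647.7 kb and 4.52 Mb and a range of 935 bp to 94.9 Mb, over 597 neighbour pairs. All untreated regions together had a median spacing of 47.7 kb. Any other untreated region lay within 100 kb of 328 unmatched regions (53.2%) and of 85.4% of matched ones, with 84% over all regions. With neighbours at most 100 kb apart, 70 unmatched regions (11.3%) formed 32 clusters, of which 27 had 2 members, 4 had 3 and 1 had 4. At a limit of 10 kb 8 regions were in clusters, and at 1 Mb 332 were. In 20 of the 32 clusters no matched region lay between the members. Of the 32 clusters, 8 with 20 members lay within 1 Mb of a stretch, and 2 held a region inside islands.

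The 5 clusters with the most members differed in what surrounded them. The largest, chr16:46389320-46435741, held 4 unmatched regions in 46.4 kb, began 3.82 kb from a stretch and also held 15 matched regions. Treated replicates 1 and 2 had 18 and 20 peaks in it, and untreated replicates 1 and 2 had 20 and 23. The missing single peaks thus lay within a field of called peaks in all 4 libraries. The 54.5 kb island of untreated replicate 1 named above covered the cluster whole. So close to a stretch, the limit given above on placing reads from repeats applies to the calls of both marks. At chr4:49101779-49143261, 516.7 kb from a stretch, 3 unmatched regions lay in 41.5 kb. There treated replicates had 0 and 7 peaks and untreated replicates 19 and 4. At chr1:121357697-121482442, 3.56 kb from a stretch, 3 unmatched regions lay in 124.7 kb, with 0 and 3 peaks in treated and 5 and 5 in untreated replicates. In both of these clusters the peak counts of treated replicate 1 were 0.

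Far from any stretch lay the other 2 of the 5. At chr3:13899628-14007606, 3 unmatched regions lay in 108.0 kb, with 1 and 2 peaks in treated replicates and 10 and 7 in untreated replicates. Here both treated libraries were below both untreated ones, and the treated gaps of the members were 32.1 to 49.7 kb. At chr19:58397895-58554509, 3 unmatched regions lay in 156.6 kb among 4 matched ones, with 7 and 11 peaks in treated and 16 and 11 in untreated replicates. The clusters were chosen for missing treated peaks, so these counts are descriptions. Gene positions on hg19 were not used here, and the regions are therefore named by position.

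**Figure D5:**
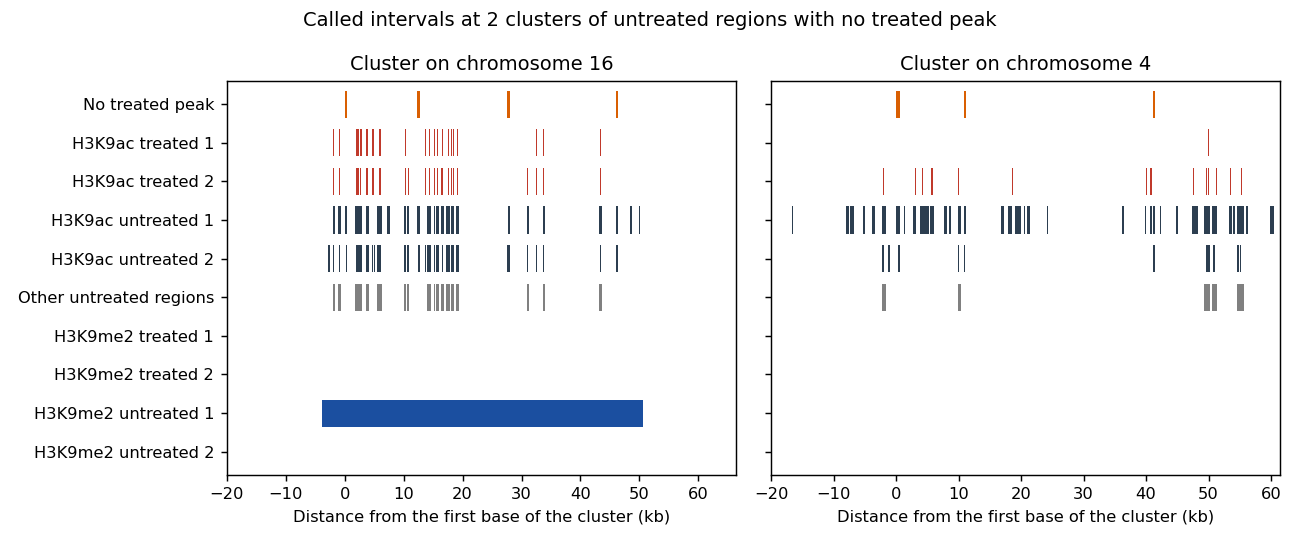
Called intervals at the clusters on chromosomes 16 and 4 (horizontal axis, kb from the first base of the cluster), with 1 row per library or set. The unmatched regions in orange lie among treated peaks of both replicates on chromosome 16, while on chromosome 4 treated replicate 1 has 0 peaks within the cluster and treated replicate 2 has 7; the blue bar is the H3K9me2 island of untreated replicate 1.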

How the data were processed

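H3K9ac and H3K9me2 were mapped by chromatin immunoprecipitation and sequencing. Trimmomatic 0.32, BWA 0.7.5, Picard, MACS2, SICER and the build hg19 are listed, without roles, per the submitters' processing notes. Depths and settings are not given in the sources consulted. The authors deposited 10 interval lists: 4 of H3K9ac peaks and 4 of H3K9me2 islands of single libraries, each with the authors' score per interval, and 1 reproducible H3K9ac set per condition. The value deposited in these sets was taken for a −log10 irreproducible discovery rate, since its lowest value, 1.30, is that of a rate of 0.05. Starts and ends are the other deposited values, and ends of H3K9me2 islands were extended by 1 bp. Scores of single libraries were used only for order within their list. The value of the untreated reproducible set was also used for medians, classes and limits.

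Overlap meant at least 1 bp. Percentiles average ties. Intervals were compared with Python 3.11.15, pandas 2.3.3, numpy 2.4.6 and SciPy 1.17.1, and this code found 200 of 200 absent regions among 5000 in a test on simulated data. The unmatched regions and all classes of them were chosen with earlier results of these data known. The loci named are the 8 highest-scoring unmatched regions outside and inside islands, the 5 clusters with the most regions, and the 3 regions nearest to and farthest from a treated peak. Conditions were compared by an exact permutation test over libraries, and no label says what a replicate number shares. Planned results on assembly gaps and genes were not run, because no sequence or annotation of hg19 was used here. Alternatives were other overlaps, thresholds, lists and left-out libraries.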

Additional observations from a re-analysis of the deposited data

Results flagged for a closer look

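Chromosome X was outside the autosomal rule. There, 9 of the 308 regions of the untreated reproducible set (2.92%) met no peak of either treated H3K9ac library, a share below the 4.39% of the autosomes. They are given because they are data that none of the comparisons used. Over chromosomes X, Y and the mitochondrial genome together, 16 of 334 regions met none.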

How the results depend on the processing

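The number of unmatched regions, 617, became 1001 against the treated reproducible set and 180 of 9998 regions with a score of at least 2. It ran from 272 to 748 when a library was left out, with 272 when untreated replicate 2 alone supplied the regions. The share inside islands, 6.48%, became 15.2% with islands of at least 1 untreated library, 4.54% with the higher-scoring part of the islands and 4.44% at a score of at least 2. Leaving out a library gave 5.55 to 12.8%. The H3K9me2 difference of -0.726 points turned to 1.38 without treated replicate 1 and 1.40 without untreated replicate 1, within a range of -2.86 to 1.40. A replicate block kept -0.726 (exact p = 1). Deviations of same-numbered libraries correlated at -0.523 over 1697 bins of 1 Mb and at 0.135 over the 617 regions themselves, and crossed numbers gave an exact p of 0.5, the smallest possible. The median gap to treated peaks, 11008 bp, was 14538 to 28102 bp with 1 treated library and 79133 bp against the treated reproducible set. Clusters held 8 regions at gaps of 10 kb and 332 at 1 Mb. The share near uncalled stretches, 6.0%, ran from 5.27% to 13.9% with 1 treated library, 13.9% being without replicate 2. The causes were not tested. Of the planned settings 16 were labelled the same, 13 moved and 2 turned round. Of those chosen after seeing the data 11 were labelled the same and 1 moved. For counts, the same meant within a fixed factor of the reported count. For shares and medians it meant within the reported interval. For the H3K9me2 difference it meant only an unchanged sign, so -2.86 was labelled the same as -0.726. The planned lengths of assembly gaps were not run. Unknown depth limits every statement of absence.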

Other observations

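Peaks of single untreated libraries, before any call of reproducibility, were mostly without a treated peak unless both untreated libraries shared them. Of the autosomal peaks, 73.7% in untreated replicate 1 and 52.1% in untreated replicate 2 had no treated peak. Among peaks that met a peak of the other untreated library the shares were 4.88% and 4.09%, and among those that met none they were 87.6% and 85.9%. Peaks shared by both untreated libraries that did not enter the reproducible set had shares of 7.32% and 6.99%. Absence from treated libraries therefore went with absence from the other untreated library.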
